A study of Homo sapiens with 48 samples.

Results

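Exons that IMR90 ER:RAS fibroblasts almost never include in their transcripts were examined for what happened to them when the splicing factors SF3B1 and RBM39 were depleted. Percent spliced in (PSI) is the share of inclusion reads among the inclusion and exclusion reads of an exon. Members were exon events of at least 28 and under 250 nt with a PSI in all 48 libraries. They also had a coverage score above the lowest class in all 48, and a mean PSI of at most 10% over the 16 libraries with non-targeting siRNA (siNT). This rule kept 2810 exons of the 24757 exon events with that coverage, and 23586 of those events had a length in the allowed range. The 2810 members lay in 1814 genes. Because the siNT level chose the members, a comparison with siNT is given below as a description, and the tests rest on other comparisons or on siNT libraries whose PSI levels were left out of the choice.

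IMR90 is a line of human lung fibroblasts, and the ER:RAS derivative carries oncogenic RAS fused to the ligand-binding part of the oestrogen receptor in every group, controls included. The cells were kept in DMSO, the solvent, or in 4-hydroxytamoxifen (4OHT), which switches the fusion on and drives the cells into senescence, for 6 days before siRNA transfection, and RNA was taken 2 days later. The 6 groups were siNT (siNT1 and siNT2), siSF3B1 (siSF3B1-13 and siSF3B1-16) and siRBM39 (siRBM39-06 and siRBM39-08), each in DMSO and in 4OHT, with 2 siRNAs of 4 replicates and so 8 libraries per group. The labels do not say that the replicates were separate cultures, whereas the study's methods call in vitro replicates independent experiments, and p-values measure the spread between these libraries. The models had no term for the siRNA, so libraries of the 2 siRNAs of a target were treated alike. For 4 siNT libraries in 4OHT the label fields disagree on the siRNA, and they were taken as siNT2 from the titles.

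SF3B1 is the largest subunit of SF3b, the part of the U2 snRNP that holds the branch point of an intron, and RBM39 is a relative of the U2AF proteins that works with them at 3′ splice sites. Many introns hold short stretches that look like exons, with an AG before them and a GT after them, and are nonetheless passed over. Such an exon is called cryptic when transcripts are not known to carry it, and a poison exon when its inclusion brings a stop codon too early in the reading frame, which commonly sends the transcript to nonsense-mediated decay (NMD). Several splicing factors use poison exons in their own transcripts to limit their own production.

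Among the exons whose inclusion was higher after siSF3B1 in both treatments, 6 are printed here to show what such an exon looks like. Capitals mark the exon and lower case the 20 intron bases before it and the 6 after it, 5′ to 3′, on GRCh37, where each exon was placed by the lengths of its neighbouring introns. All 6 lie between an intron ending in AG and an intron starting with GT.
TBC1D17 (chr19:50382709-50382761, + strand): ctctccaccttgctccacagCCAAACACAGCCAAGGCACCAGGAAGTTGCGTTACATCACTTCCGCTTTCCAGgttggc
U2AF2 (chr19:56173137-56173200, + strand): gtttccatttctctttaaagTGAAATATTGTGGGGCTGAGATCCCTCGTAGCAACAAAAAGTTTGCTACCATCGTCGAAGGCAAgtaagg
IVNS1ABP (chr1:185275617-185275757, - strand): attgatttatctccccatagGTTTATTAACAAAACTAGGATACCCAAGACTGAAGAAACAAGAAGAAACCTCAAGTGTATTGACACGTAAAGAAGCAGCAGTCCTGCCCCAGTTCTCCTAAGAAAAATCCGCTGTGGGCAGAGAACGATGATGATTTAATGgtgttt
PCNX3 (chr11:65403422-65403502, + strand): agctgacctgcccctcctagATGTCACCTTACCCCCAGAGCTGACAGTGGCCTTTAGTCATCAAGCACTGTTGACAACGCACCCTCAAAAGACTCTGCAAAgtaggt
ZMIZ2 (chr7:44805566-44805655, + strand): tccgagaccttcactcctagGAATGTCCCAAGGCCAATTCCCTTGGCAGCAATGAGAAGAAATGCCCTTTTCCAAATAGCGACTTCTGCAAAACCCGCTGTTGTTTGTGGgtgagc
KLC2 (chr11:66030967-66031039, + strand): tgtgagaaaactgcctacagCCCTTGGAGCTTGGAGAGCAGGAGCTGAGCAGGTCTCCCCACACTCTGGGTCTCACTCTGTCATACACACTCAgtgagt

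The U2AF2 exon opens with the stop codon TGA at its base 1 when read in the frame of the upstream coding exon. In the same way a stop codon starts at base 7 of the IVNS1ABP exon, base 35 of the PCNX3 exon, base 33 of the ZMIZ2 exon and base 26 of the KLC2 exon. The TBC1D17 exon holds no in-frame stop, but its 53 nt shift the frame and a stop follows in a later exon. The TBC1D17, PCNX3, ZMIZ2 and KLC2 exons are in no transcript of the GENCODE annotation used here. The U2AF2 exon is annotated in NMD transcripts but in no protein-coding one, and the IVNS1ABP exon is annotated only in transcripts of other non-coding kinds.

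The next 4 exons were higher after siRBM39 in both treatments and are shown in the same form, for comparison with those above.
FLOT2 (chr17:27212875-27212965, - strand): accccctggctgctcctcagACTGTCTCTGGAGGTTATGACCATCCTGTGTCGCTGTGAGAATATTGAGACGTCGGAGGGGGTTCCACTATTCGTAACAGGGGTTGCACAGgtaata
ADD1 (chr4:2928369-2928402, + strand): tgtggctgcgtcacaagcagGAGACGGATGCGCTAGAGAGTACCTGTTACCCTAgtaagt
MED24 (chr17:38191169-38191225, - strand): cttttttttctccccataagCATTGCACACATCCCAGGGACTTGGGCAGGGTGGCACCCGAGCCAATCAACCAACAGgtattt
CCDC14 (chr3:123662087-123662142, - strand): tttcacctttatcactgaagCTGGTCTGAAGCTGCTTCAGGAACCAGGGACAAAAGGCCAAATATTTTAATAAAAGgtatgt

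The FLOT2, ADD1 and MED24 exons are annotated in protein-coding transcripts, and the CCDC14 exon is in none. The MED24 exon keeps the frame without a stop. The ADD1 exon starts a TAA at its base 33, with the last A in the next exon, but this stop does not lie 50 nt or more before the last exon junction. The FLOT2 and CCDC14 exons shift the frame.

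The libraries held 31467221 to 52734636 gene counts, with a median of 39656598. SF3B1 had a mean of 356 CPM (counts scaled to library size) in siNT under DMSO and 326 under 4OHT, which went to 32.6 and 27.1 with siSF3B1. RBM39 had 169 and 119.5 CPM in siNT against 27.2 and 16.2 with its own siRNA. All 8 fibroblast markers reached 1 CPM, with summed levels of 46559.7 to 80442.2 CPM over the DMSO libraries and 18207.6 to 22989.3 CPM over the 4OHT libraries, while the immune markers PTPRC and CD3E stayed under 0.2 CPM and the epithelial marker CDH1 under 1 CPM in every library. Of the epithelial, endothelial and immune lists, 2 of 4, 1 of 3 and 1 of 3 genes reached 1 CPM in some library. The genes that did included KRT8 (4.48 to 52.9 CPM), VWF (0.541 to 7.46 CPM) and CD68 (32.9 to 113 CPM), and the epithelial sum reached 56.6 CPM in a 4OHT siRBM39 library. In these bulk samples, fewer cells of a type and less RNA per cell cannot be told apart. Replicate 4 of siRBM39-08 in 4OHT lay apart from its group, with a median absolute difference of 0.516 in log2 CPM from the group's median, against 0.0412 to 0.289 for the other 47 libraries. Without it, 81 members differed between the knockdowns in 4OHT (46 higher and 35 lower after siSF3B1) and 9 between the treatments within siRBM39 (4 higher and 5 lower in 4OHT), counts that are given with it further on.

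Most members were close to silent in the controls. The mean siNT PSI was 0 for 463 members (16.5%), above 0 and at most 1% for 1579 (56.2%), above 1 and at most 5% for 639 (22.7%) and above 5% for 129 (4.59%), with a median of 0.33%. PSI rested on few reads, since the median member had 48 to 55.5 reads per library depending on the group. The 2 members nearest the limit from inside were exons of CDK16 (siNT mean 9.95%) and DNAJC7 (9.94%), and the 2 exons nearest from outside were in CLCN3 (10.0175%) and POLB (10.12%). The DNAJC7 exon shows that a mean over both treatments can hide a difference, since its mean was 16.5% under DMSO and 3.39% under 4OHT. Members were short, with a median length of 100 nt, and 1069 of them (38.04%) had a length that is a multiple of 3, against 40.5% of all exon events in the same length range.

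Depletion of either factor brought only a small number of these exons above 10%. The mean PSI exceeded 10% in siNT for 9 members under DMSO and 8 under 4OHT, with siSF3B1 for 23 and 20, and with siRBM39 for 23 and 24. It exceeded 20% for none in siNT, with siSF3B1 for 3 and 5, and with siRBM39 for 3 and 3. The low siNT counts follow from the rule, so the choice was repeated on each siNT alone. Of the 2816 exons chosen on siNT1, 20 were above 10% in the unused siNT2 libraries in DMSO, against 24 with siSF3B1-13, 32 with siSF3B1-16, 22 with siRBM39-06 and 28 with siRBM39-08. In 4OHT the same exons gave 21 for siNT2, 21 and 23 for the siSF3B1 siRNAs and 23 and 28 for the siRBM39 siRNAs. Of the 2813 exons chosen on siNT2, 17 in DMSO and 16 in 4OHT were above 10% in siNT1, against 21 to 31 in the siSF3B1 and 23 to 30 in the siRBM39 libraries. Each of these counts is of exons and was not tested.

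After siSF3B1, 34 of the 2574 members that varied were called higher in DMSO and 32 in 4OHT, at an adjusted p under 0.05 (limma on logit PSI, Benjamini-Hochberg over all 16960 exons) and with at least 5 percentage points between the group means. Of all exons tested, 0.46% were called higher in DMSO and 0.466% in 4OHT. These shares are given for scale, since siNT took part in the choice of the members. The members called in both treatments numbered 16, which is 47.1% of the DMSO list and 50% of the 4OHT list, and 50 were called in either. With members chosen on 1 siNT and tested against the other, which reuses no library, 32 and 33 were higher in DMSO and 28 and 29 in 4OHT. Levels below are PSI in percent, given as the lowest to the highest of 8 libraries or as a mean ± SD, and differences are in percentage points ± SE.

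**Figure D1:**
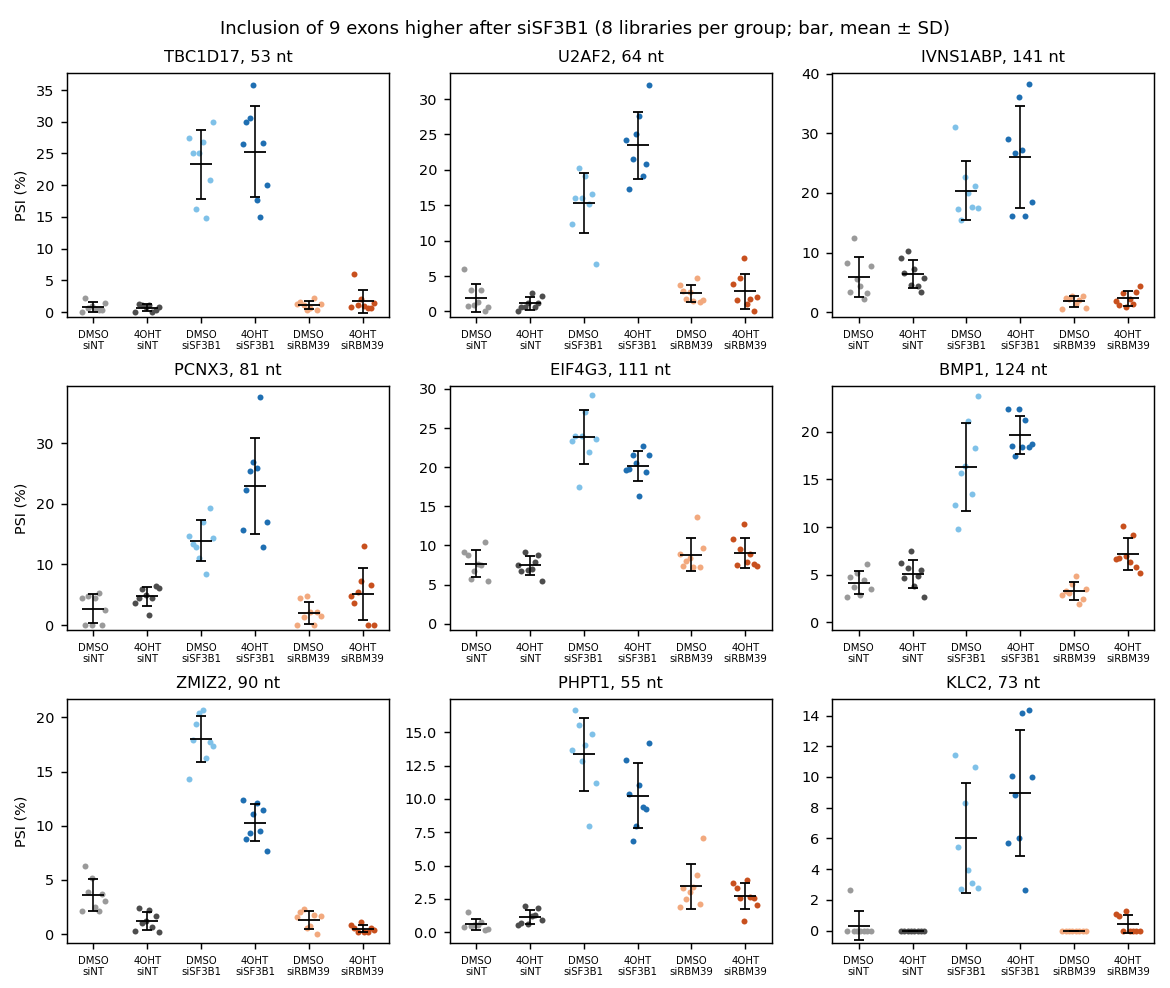
PSI (%) of 9 rarely included exons in each of the 48 libraries, by group, with 1 point per library and bars for the mean ± SD of 8 libraries. In each panel all siSF3B1 points (blue) lie above all siNT points (grey) of the same treatment, and the TBC1D17 exon goes from at most 2.24% in siNT to at least 14.85% after siSF3B1.

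For 9 of the 16, all 8 siSF3B1 libraries lay above all 8 siNT libraries in both treatments. Calls in both or either treatment, and groups without overlap, were not counted over all exons. The low siNT levels were set by the rule, which makes such a separation easier. The largest difference was in TBC1D17, which encodes a GTPase-activating protein for Rab proteins of endosomal transport. PSI of its 53-nt exon (HsaEX0063792) was 0 to 2.24 (median 0.58) in DMSO siNT and 14.8 to 30 (median 25) in DMSO siSF3B1. In 4OHT it was 0 to 1.20 (median 0.86) in siNT and 14.9 to 35.9 (median 26.6) after siSF3B1. The exon was near 0 in every siNT library and frequent in every siSF3B1 library. The differences in mean PSI were 22.5 ± 1.95 points (SE) in DMSO and 24.6 ± 2.54 in 4OHT, with adjusted p of at most 4.41e-12 and 1.14e-12 in the 2 tests against the siNT that took no part in its choice as a member. All siNT libraries took part in its ranking as the largest difference. Both siRNAs showed the higher level, with means of 23.4 for siSF3B1-13 and 23.1 for siSF3B1-16 in DMSO and of 30.7 and 19.8 in 4OHT.

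The exon in U2AF2, which encodes the U2AF subunit that binds the pyrimidine tract and so brings the U2 snRNP to the 3′ splice site, was second in 4OHT. PSI of these 64 nt (HsaEX0068570) was 0 to 6.02 (median 1.11) in DMSO siNT and 6.67 to 20.3 (median 16.1) in DMSO siSF3B1. In 4OHT it was 0 to 2.61 (median 0.91) in siNT and 17.4 to 32.04 (median 22.9) after siSF3B1. The lowest DMSO siSF3B1 library came close to the highest siNT library, and the 4OHT groups were far apart. The differences were 13.3 ± 1.65 points in DMSO (larger adjusted p of the tests on split siNT, 4.31e-06) and 22.3 ± 1.71 in 4OHT (2.03e-09). The stop codon at its first base, printed above, makes it a poison exon in a splicing factor that acts beside SF3B1.

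IVNS1ABP, which encodes a Kelch protein that binds actin and the influenza NS1 protein, had a 141-nt exon (HsaEX0032642) with PSI of 2.20 to 12.4 (median 5.03) in DMSO siNT and 15.5 to 31.1 (median 18.8) in DMSO siSF3B1. In 4OHT it was 3.35 to 10.3 (median 6.24) and 16.1 to 38.2 (median 26.97). This exon was not silent in siNT, and the difference was 14.5 ± 2.12 points in DMSO (1.87e-04) and 19.6 ± 3.13 in 4OHT (1.34e-05). After siRBM39 it had means of 1.83 ± 0.852 in DMSO and 2.36 ± 1.26 (SD, n = 8) in 4OHT. The 81-nt exon of PCNX3 (listed as PCNXL3, HsaEX0046016), a membrane protein of little known function, had PSI of 0 to 5.26 (median 3.56) in DMSO siNT and 8.47 to 19.3 (median 13.9) in DMSO siSF3B1, and 1.59 to 6.38 (median 4.78) and 12.9 to 37.5 (median 23.8) in 4OHT. It rested on medians of 23 to 35.5 reads per library and its differences were 11.2 ± 1.45 and 18.2 ± 2.84 points (0.00274 and 0.00245).

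EIF4G3 encodes a scaffold of translation initiation, and its 111-nt exon (HsaEX0022062), which is annotated in coding transcripts and keeps the frame, was the member of this set with the highest siNT level. PSI was 5.44 to 10.5 (median 7.53) in DMSO siNT and 17.5 to 29.2 (median 23.8) in DMSO siSF3B1, and 5.49 to 9.18 (median 7.25) and 16.4 to 22.7 (median 20.1) in 4OHT. The differences of 16.2 ± 1.36 and 12.7 ± 0.802 points (1.20e-10 and 2.37e-09) left the groups without overlap. BMP1 encodes the protease that cuts procollagen, a main product of fibroblasts. Its 124-nt exon (HsaEX0008205) is annotated in NMD transcripts but in no protein-coding one. PSI was 2.70 to 6.14 (median 4.11) in DMSO siNT and 9.80 to 23.7 (median 16) in DMSO siSF3B1. In 4OHT it was 2.66 to 7.53 (median 5.14) and 17.4 to 22.4 (median 18.6), and the differences were 12.2 ± 1.68 and 14.6 ± 0.876 points (3.20e-09 and 4.37e-09). A further BMP1 exon of 166 nt was called in 4OHT, with means of 0.613 ± 1.16 in siNT and 8.23 ± 4.29 after siSF3B1.

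ZMIZ2, a coactivator of nuclear receptors, had an unannotated 90-nt exon (HsaEX0072864) at 2.15 to 6.28 (median 3.38) in DMSO siNT and 14.3 to 20.7 (median 17.8) in DMSO siSF3B1, and at 0.22 to 2.46 (median 1.11) and 7.65 to 12.4 (median 10.3) in 4OHT. It was followed by an intron of only 107 nt. PHPT1 encodes a histidine phosphatase, and its 55-nt exon (HsaEX0047216) was at 0.17 to 1.49 (median 0.525) in DMSO siNT and 7.99 to 16.7 (median 13.9) in DMSO siSF3B1, and at 0.53 to 1.99 (median 1.05) and 6.83 to 14.2 (median 9.88) in 4OHT, on 167 to 302 reads per library in the median. KLC2 encodes a light chain of the motor protein kinesin. Its 73-nt exon (HsaEX0034678) was at 0 in all but 1 of the 16 siNT libraries and in every siSF3B1 library at 2.64 or above, with medians of 4.68 in DMSO and 9.40 in 4OHT. The differences in DMSO and 4OHT were 14.4 ± 0.921 and 9.08 ± 0.673 points for ZMIZ2, 12.8 ± 0.978 and 9.10 ± 0.889 for PHPT1 and 5.71 ± 1.31 and 8.97 ± 1.45 for KLC2. The larger split p was at most 9.80e-06 for each of these 6 differences.

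The other 7 members called in both treatments, named here after their values were seen, overlapped between the groups in at least 1 treatment. They lay in PDGFRB (the PDGF receptor of fibroblasts), LONP1 (a mitochondrial protease), CCDC115 (assembly of the proton pump of lysosomes), SIRT2 (a deacetylase), ATP13A3 (a transport ATPase), MTSS2 (an actin regulator) and DLG5 (a scaffold of cell polarity). The PDGFRB exon of 102 nt had means of 0.966 ± 0.756 in DMSO siNT and 12.1 ± 3.42 after siSF3B1, and of 0.714 ± 1.15 and 5.92 ± 4.48 in 4OHT. The LONP1 exon of 110 nt went from 0.781 ± 0.405 to 10.6 ± 4.28 in DMSO and from 0.335 ± 0.686 to 6.95 ± 4.35 in 4OHT. Neither is annotated, and both had split p of at most 0.00155 in both treatments. The 5 others differed by 5.17 to 10.9 points over the 2 treatments. Of the remaining members, 18 were called in DMSO alone and 16 in 4OHT alone, which does not show that they differed between the treatments.

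CD44, the hyaluronan receptor whose variable exons are a well known case of alternative splicing, had 2 such exons among the members called in DMSO alone. Their means were 2.23 ± 0.599 and 2.62 ± 0.518 in DMSO siNT and 8.43 ± 1.33 and 9.54 ± 1.72 after siSF3B1. After siRBM39 the means were 0.932 ± 0.512 and 0.685 ± 0.402, and both exons were higher after siSF3B1 than after siRBM39 (1.95e-14 and 2.01e-19). CD44 was singled out after its values were seen.

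After siRBM39, 24 members were called higher in DMSO and 23 in 4OHT, where 0.436% and 0.466% of all exons tested were called higher. The members called in both treatments numbered 12 (50% of the DMSO list and 52.2% of the 4OHT list), and 35 were called in either, again without a count over all exons. Tested against the siNT that did not choose them, 16 and 20 members were higher in DMSO and 17 and 18 in 4OHT. Without replicate 4 of siRBM39-08 the 4OHT count was 20.

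**Figure D2:**
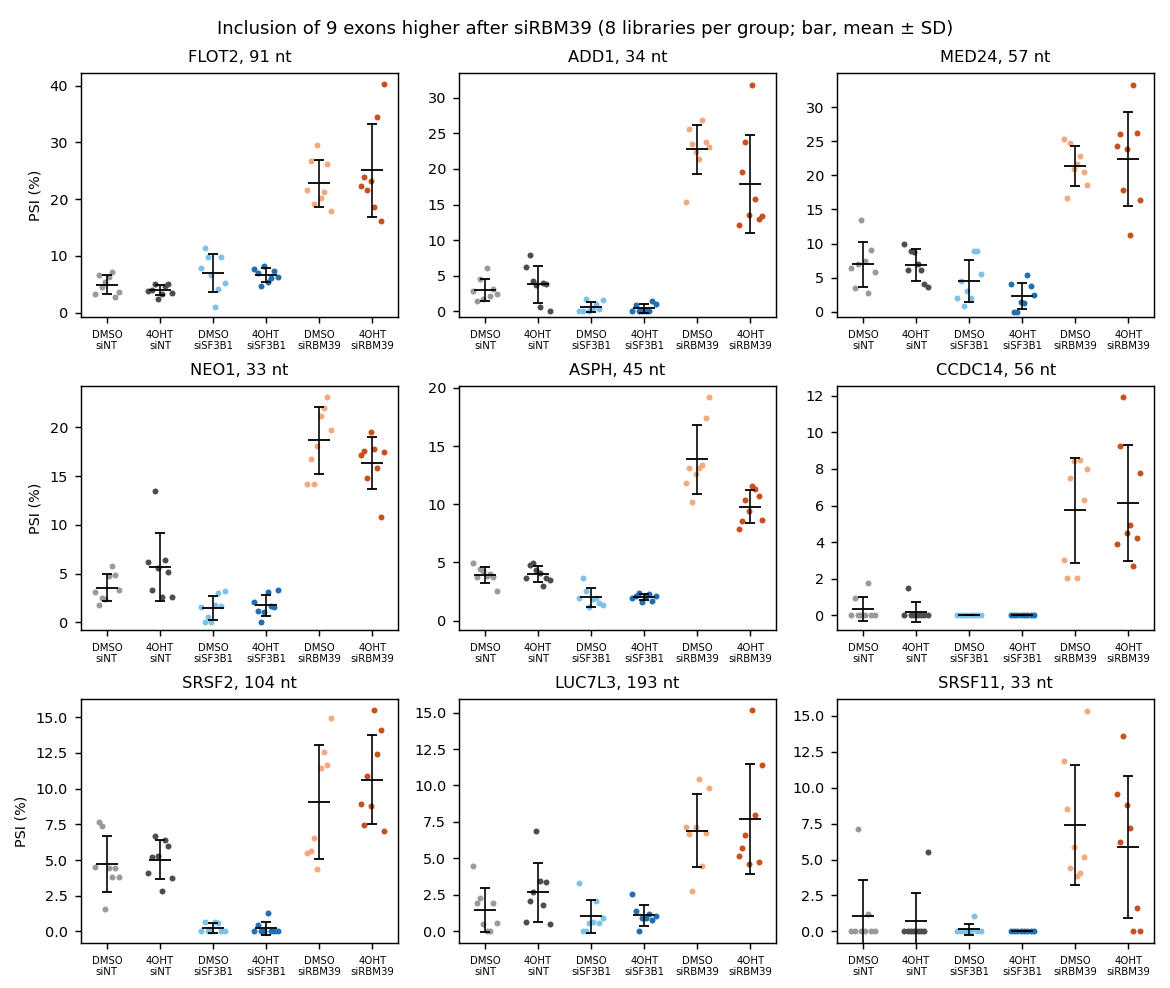
PSI (%) of 9 rarely included exons in each of the 48 libraries, by group, with 1 point per library and bars for the mean ± SD of 8 libraries. The siRBM39 points (orange) lie above the siNT points (grey) in most panels, and in each panel but FLOT2 the siSF3B1 mean (blue) lies below the siNT mean in both treatments.

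Flotillin-2 (FLOT2), a protein of membrane rafts, held the exon with the largest difference averaged over both treatments. PSI of these 91 nt (HsaEX0025946) was 2.79 to 7.12 (median 4.92) in DMSO siNT and 17.9 to 29.5 (median 21.4) in DMSO siRBM39, and 2.41 to 5.04 (median 3.89) and 16.1 to 40.2 (median 22.7) in 4OHT. All siRBM39 libraries were above all siNT libraries, and the highest, 40.2%, was replicate 4 of siRBM39-08. The differences were 17.9 ± 1.57 points in DMSO (larger split p 2.96e-06) and 21.1 ± 2.90 in 4OHT (2.15e-07), and 18.9 without that library. After siSF3B1 the same exon was at 6.99 ± 3.41 in DMSO and 6.59 ± 1.21 in 4OHT.

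ADD1 encodes α-adducin, which ties spectrin to actin filaments under the membrane. PSI of its 34-nt exon (HsaEX0002792) was 1.52 to 6.03 (median 2.63) in DMSO siNT and 15.3 to 26.9 (median 23.3) after siRBM39, and 0 to 7.96 (median 3.86) and 12.2 to 31.8 (median 14.6) in 4OHT. The differences were 19.7 ± 1.34 (1.26e-06) and 14.1 ± 2.61 points (2.93e-04), again without overlap. MED24 encodes a subunit of Mediator, which links transcription factors to RNA polymerase II, and its 57-nt exon (HsaEX0038645) was at 2.78 to 13.4 (median 6.69) in DMSO siNT and 16.7 to 25.3 (median 21.3) after siRBM39. In 4OHT it was at 3.57 to 10 (median 6.58) and 11.3 to 33.3 (median 24.04), and the differences were 14.5 ± 1.57 (0.0104) and 15.6 ± 2.57 points (0.0321). Both siRNAs gave these levels, with 4OHT means of 17.3 for siRBM39-06 and 18.5 for siRBM39-08 in ADD1, and 23.01 and 21.8 in MED24.

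ASPH encodes a hydroxylase of aspartate and asparagine, and its 45-nt exon (HsaEX0006332) had the deepest coverage of the set, with medians of 324 to 759.5 reads per library. PSI was 2.53 to 4.92 (median 3.92) in DMSO siNT and 10.2 to 19.2 (median 13.1) after siRBM39, and 2.95 to 4.94 (median 3.86) and 7.86 to 11.6 (median 9.90) in 4OHT. The differences of 9.91 ± 1.08 and 5.82 ± 0.548 points (3.17e-09 and 9.30e-06) left no overlap. CCDC14, a protein of the centrosome's satellites, held an unannotated 56-nt exon (HsaEX0013036) that was at 0 in 13 of 16 siNT libraries and in all 16 siSF3B1 libraries, and at 2.02 to 8.51 (median 6.88) in DMSO siRBM39 and 2.70 to 11.9 (median 4.71) in 4OHT siRBM39. Its differences were 5.39 ± 1.05 and 5.97 ± 1.14 points (1.31e-06 and 4.36e-07), and the DMSO value fell under 5 points without replicate 3 (4.89) and without replicate 4 (4.44).

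The other 7 members called in both treatments lay in NEO1, STAMBP, UHRF2, TPM1, SRSF11, MGRN1 and LUC7L3, and were named after their values were seen unless listed with the splicing factors below. Neogenin (NEO1), a receptor for netrins, had a 33-nt exon (HsaEX0042591) at 1.79 to 5.77 (median 3.20) in DMSO siNT and 14.2 to 23.1 (median 18.9) after siRBM39, and at 2.57 to 13.4 (median 5.38) and 10.8 to 19.5 (median 17.3) in 4OHT, where 1 siNT library overlapped. The tropomyosin gene TPM1, whose product lines actin filaments, had a 79-nt exon with means of 1.51 ± 1.59 and 9.78 ± 1.29 in DMSO and 1.02 ± 0.711 and 8.48 ± 4.45 in 4OHT (split p 4.75e-04 and 4.16e-04). STAMBP, a deubiquitinase of endosomes, had means of 4.44 ± 5.81 and 16.5 ± 8.44 in DMSO, but there the larger split p was 0.187. UHRF2, a ubiquitin ligase of chromatin, and MGRN1, a ubiquitin ligase of endosomes, also had larger split p above 0.05 in both treatments.

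The PSI levels of the siSF3B1 and siRBM39 libraries had no part in the choice of members, which asked of these libraries only coverage, so they were compared directly. In DMSO 51 members were higher and 49 lower after siSF3B1 than after siRBM39, and in 4OHT 49 were higher and 36 lower. Over all exons tested the shares were 1.3% higher and 9.12% lower in DMSO and 1.35% higher and 10.3% lower in 4OHT. Of the 2574 members in the test, 1.98% were higher and 1.9% lower in DMSO and 1.9% and 1.4% in 4OHT. The median difference over members was 0.0663 points in DMSO and 0.0206 in 4OHT, against -0.181 and -0.231 over all exons. Both treatments gave 32 higher members (62.7% of the DMSO list and 65.3% of the 4OHT list) and 30 lower ones (61.2% and 83.3%), and the 8 libraries of each knockdown did not overlap in either treatment for 17 of the 32 and 13 of the 30. Neither count was made over all exons, so the separation cannot be called particular to the members.

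**Figure D3:**
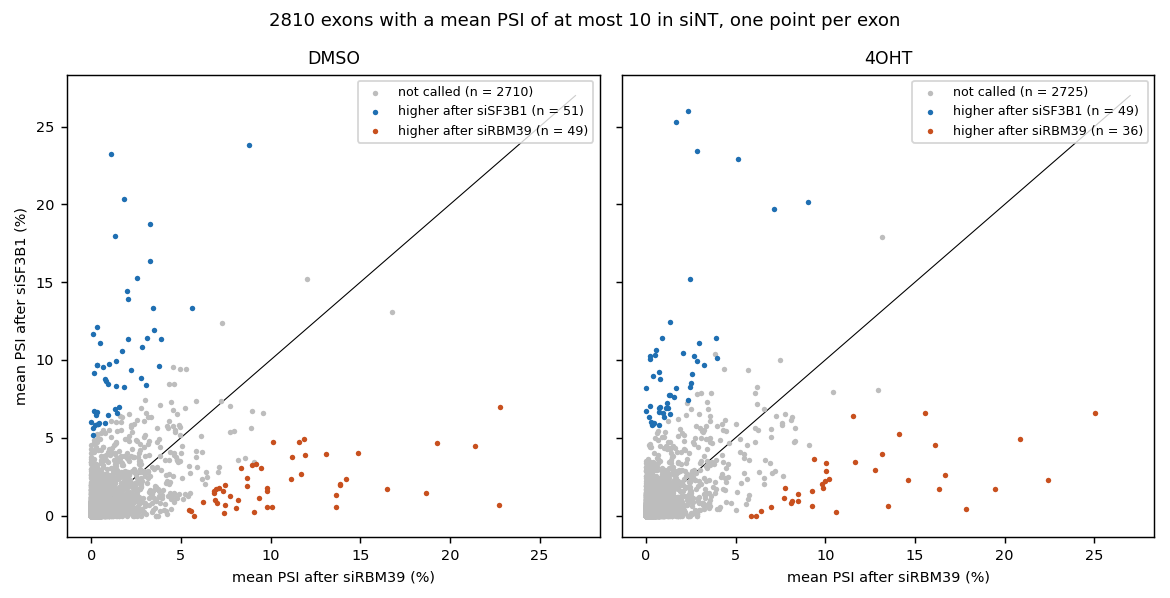
Mean PSI (%) after siRBM39 (horizontal) and after siSF3B1 (vertical) for the 2810 members in DMSO (left) and 4OHT (right), with 1 point per exon and the diagonal of equal inclusion. Exons called higher after 1 knockdown than after the other (blue, 51 and 49; orange, 49 and 36) lie off the diagonal on either side, while most members stay near 0 on both axes.

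TBC1D17 was higher after siSF3B1 by 22.1 ± 1.94 points in DMSO (adjusted p 2.18e-16, limma) and 23.6 ± 2.61 in 4OHT (3.89e-16), with siRBM39 libraries between 0.36 and 6.05. IVNS1ABP was higher by 18.5 ± 1.77 and 23.6 ± 3.05 points (3.26e-13 and 5.63e-14), U2AF2 by 12.8 ± 1.56 and 20.6 ± 1.89 (1.43e-07 and 8.08e-11) and ZMIZ2 by 16.7 ± 0.809 and 9.78 ± 0.614 (1.65e-17 and 4.30e-16). For U2AF2 the siRBM39 levels, 2.54 ± 1.22 in DMSO and 2.84 ± 2.44 in 4OHT, lay near those of siNT. For each of the 4 exons all 8 siSF3B1 libraries lay above all 8 siRBM39 libraries in both treatments.

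In the other direction ADD1 was lower after siSF3B1 than after siRBM39 by 22.1 ± 1.25 points in DMSO (8.56e-15) and 17.4 ± 2.45 in 4OHT (6.56e-14). MED24 was lower by 16.9 ± 1.51 and 20.1 ± 2.54 points (9.95e-08 and 5.96e-11), FLOT2 by 15.8 ± 1.89 and 18.5 ± 2.92 (1.34e-08 and 5.21e-09, and -16.29 points in 4OHT without the library that stands apart) and NEO1 by 17.2 ± 1.29 and 14.6 ± 1.01 (1.61e-13 and 8.41e-12). The siSF3B1 levels of ADD1, 0.65 ± 0.736 in DMSO and 0.434 ± 0.624 in 4OHT, and of NEO1, 1.47 ± 1.23 and 1.73 ± 1.08, were under the siNT means of 3.05 ± 1.54 and 3.81 ± 2.63 for ADD1 and 3.56 ± 1.39 and 5.66 ± 3.50 for NEO1. PHPT1 after siRBM39 in DMSO was at 3.44 ± 1.67 against 0.591 ± 0.409 in siNT, a difference of 2.84 ± 0.607 points that stayed under the 5 points asked for a call (split p 3.51e-04). It was still 9.92 ± 1.13 points higher after siSF3B1 (9.26e-11).

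Few members had inclusion to lose, since a fall of 5 points needs a level of at least 5 to start from. Called lower against siNT were 31 members in DMSO and 23 in 4OHT after siSF3B1, and 23 and 23 after siRBM39. The shares over all exons, most of which start from high inclusion, were 11.5% and 12.9% for siSF3B1 and 3.04% and 3.52% for siRBM39. Of the 44 members lower after siSF3B1 in either treatment, 41 had a siNT mean above 5%, as had 33 of the 37 lower after siRBM39. Those lower in both treatments numbered 10 after siSF3B1 and 9 after siRBM39, also without a count over all exons.

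Whether 4OHT changed the inclusion of these exons was asked within each knockdown. After siSF3B1, 2 members were higher in 4OHT than in DMSO and 11 lower, where 0.295% and 1.65% of all exons were. After siRBM39, 4 were higher and 4 lower, where 0.183% and 0.637% of all exons were. The change from siNT was also compared between the treatments, as an interaction. This uses the siNT libraries that chose the members, so interaction p-values with all of them are descriptions. The change from siNT differed between the treatments for 3 members with siSF3B1. It was more positive in 4OHT for 2 and less positive for 1, as for 0.0236% and 0.265% of all exons. With siRBM39 it was more positive in 4OHT for 1 member, where 0.0059% of all exons were more and 0.0059% less positive. The fibroblast markers had lower and the immune markers, here CD68, higher sums in 4OHT than in DMSO for every siRNA target, with summed immune markers of 32.9 to 47.1 CPM in DMSO and 70.9 to 113 CPM in 4OHT libraries, and their part in these differences was not tested.

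**Figure D4:**
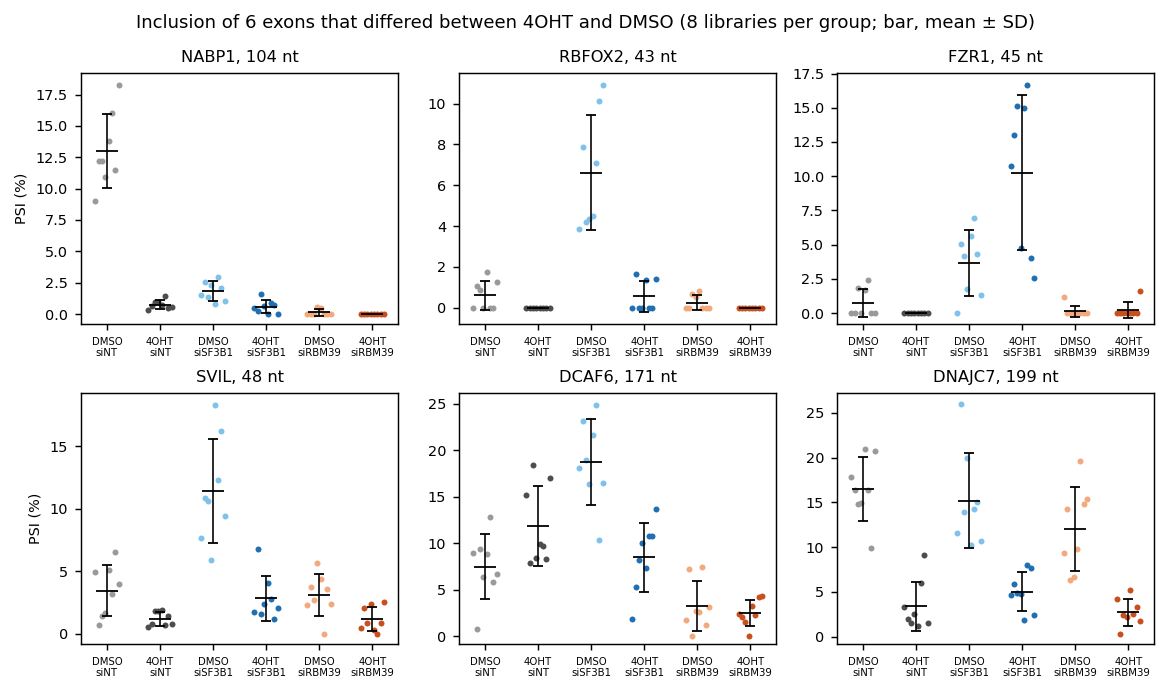
PSI (%) of 6 rarely included exons in each of the 48 libraries, by group, with 1 point per library and bars for the mean ± SD of 8 libraries. NABP1 is frequent in DMSO siNT alone, RBFOX2 and SVIL are highest in DMSO siSF3B1, FZR1 is highest in 4OHT siSF3B1, and DNAJC7 is higher in DMSO than in 4OHT with each siRNA target.

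The exon of RBFOX2, which encodes a regulator that binds GCATG-type sites beside alternative exons, was included after siSF3B1 in DMSO and hardly in 4OHT. PSI of these 43 nt (listed under RBM9, HsaEX0052772) was 3.88 to 10.9 (median 5.79) in DMSO siSF3B1 and 0 to 1.65 (median 0) in 4OHT siSF3B1, and at most 1.77 in the other groups. The 2 siSF3B1 groups did not overlap and differed by 6.07 ± 1.03 points (3.53e-10). The change from siNT was 5.45 ± 1.06 points smaller in 4OHT (0.00174 for the interaction), which became 0.0674 without replicate 3 and 0.117 when siNT1 chose the members and siNT2 was the control. With siSF3B1-13 alone the interaction was -4.05 points, under the 5 asked for a call.

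The unannotated 45-nt exon of FZR1 (HsaEX0026699), which encodes the activator of the anaphase-promoting complex that keeps cells in G1, went the other way. PSI was 0 to 6.98 (median 4.26) in DMSO siSF3B1 and 2.56 to 16.7 (median 11.9) in 4OHT siSF3B1, and 0 in all 8 4OHT siNT libraries. The 4OHT siSF3B1 libraries fell into 5 with 10.8% or more and 3 with 4.76% or less, on medians of 29.5 reads. The difference between treatments was 6.58 ± 2.17 points (0.011) and the interaction 7.33 ± 2.20 (0.0462), which rose above 0.05 without replicate 1 (0.327), 2 (0.198) or 3 (0.157) and was 0.237 and 0.472 with members chosen on 1 siNT and tested against the other. The difference between treatments was no longer called without replicate 1 (5.43 points, 0.137), with only the groups compared in the fit (0.209) or with siSF3B1-16 alone (4.99 points, 0.358).

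NABP1, which encodes a single-stranded DNA-binding protein of DNA repair, had the largest interaction of those called. PSI of its unannotated 104-nt exon (listed under OBFC2A, HsaEX0044510) was 8.99 to 18.3 (median 12.2) in DMSO siNT, 0.31 to 1.41 (median 0.69) in 4OHT siNT, 0.79 to 2.98 (median 1.80) in DMSO siSF3B1 and at most 0.58 in DMSO siRBM39. No library of another group exceeded 2.98. In DMSO the change from siNT was -11.2 points after siSF3B1 and -12.9 points after siRBM39. In 4OHT the siNT libraries had little inclusion to lose. The interaction was positive, at 10.98 ± 1.11 points for siSF3B1 (3.34e-08, limma) and 12.1 ± 1.06 for siRBM39 (5.07e-12). With either siNT alone choosing the members and the other as control, the larger p was 2.48e-04 and 2.07e-07. Its siNT mean over both treatments was 6.88, inside the limit of the rule because the 4OHT libraries were near 0. The interaction thus largely restates the siNT difference between treatments that let the exon in. Choosing on 1 siNT over both treatments does not remove this.

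DNAJC7, a co-chaperone of HSP90, had a 199-nt exon (HsaEX0020364) with a lower mean in 4OHT for each siRNA target. PSI was 10.2 to 25.9 (median 14.1) in DMSO and 1.85 to 7.96 (median 4.80) in 4OHT after siSF3B1, and 6.33 to 19.6 (median 12.04) and 0.35 to 5.26 (median 2.46) after siRBM39. Treatment lowered it by 10.2 ± 2.04 points within siSF3B1 (3.64e-04) and 9.28 ± 1.74 within siRBM39 (3.65e-05), without overlap. SVIL encodes supervillin, which links myosin and actin to the membrane, and its 48-nt exon (HsaEX0063051) was at 5.88 to 18.3 (median 10.8) in DMSO and 1.21 to 6.77 (median 2.25) in 4OHT siSF3B1, a fall of 8.58 ± 1.60 points (1.10e-04). DCAF6, a substrate receptor of a ubiquitin ligase, had a 171-nt exon at 10.4 to 24.9 (median 18.5) and 1.82 to 13.7 (median 9.10), 10.2 ± 2.08 points lower in 4OHT (0.0292), but not past the threshold without replicate 1 (0.292) or 2 (0.0913). Nor did it pass with siSF3B1-16 alone (-7.69 points, 0.325). In siNT the DCAF6 mean was higher in 4OHT (11.8) than in DMSO (7.46), and the siSF3B1 interaction was not called (-14.6 points, 0.0536, limma).

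Within siRBM39 the exon of CSNK1E, casein kinase 1 epsilon, was at 3.92 to 9.61 (median 6.26) in DMSO and 10.9 to 31.5 (median 12.8) in 4OHT. The highest value was replicate 4 of siRBM39-08, and the difference was 9.10 ± 2.48 points (1.47e-05) with it and 6.82 (1.82e-05) without it, but 4.96 (0.0893) with siRBM39-06 alone. The CSNK1E mean was also higher in 4OHT than in DMSO in siNT (8.34 against 4.29) and after siSF3B1 (6.61 against 2.46). The siSF3B1 difference of 4.15 ± 0.517 points (1.21e-05, limma) lay under the 5 asked for a call. AHRR, the repressor of the aryl hydrocarbon receptor, had a 54-nt exon at 0.77 to 6.70 (median 3.63) in DMSO and 6.82 to 24.9 (median 11.2) in 4OHT, again with that library highest. The difference of 9.28 ± 2.45 points (0.0266) was 7.57 without it, at an adjusted p of 0.0730. The call was also lost without any of the replicate numbers 1 to 4, at adjusted p of 0.0769 to 0.178. Means of the AHRR exon were higher in 4OHT in siNT (5.54 against 2.11) and after siSF3B1 (8.05 against 3.12) as well. The interaction with siRBM39 was called for neither exon.

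Poison exons are best known in splicing factors, and a list of 135 such genes (SR proteins, U1 and U2 snRNP proteins, hnRNP and PTB proteins, RBM, U2AF and other regulators, and splicing kinases) was followed. Of these genes 42 held 82 members, of which 80 varied. Called higher and lower were 3 and 5 after siSF3B1 in DMSO, 1 and 1 in 4OHT, 2 and 2 after siRBM39 in DMSO, and 3 and 0 in 4OHT. In the same order, the shares of all members were 1.32% and 1.2%, 1.24% and 0.894%, 0.932% and 0.894%, and 0.894% and 0.894%, and those of all exons 0.46% and 11.5%, 0.466% and 12.9%, 0.436% and 3.04%, and 0.466% and 3.52%. The median difference over the 80 was -0.306 and -0.148 points with siSF3B1 and -0.189 and -0.112 with siRBM39, where all exons had medians of -0.293, -0.361, 0 and 0. After siSF3B1 2 listed members were higher than after siRBM39 and 6 lower in DMSO, and 1 and 3 in 4OHT, where 1.98% and 1.9%, and 1.9% and 1.4%, of all members and 1.3% and 9.12%, and 1.35% and 10.3%, of all exons were. No member lay in RBM39 or in the transcription elongation factor SUPT5H, and the member in the chromatin remodeller CHD4 was called in no comparison.

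The SR protein SRSF2 activates weak exons and is known to shape the splicing of its own transcript. It had a 104-nt exon (HsaEX0061800), beyond the coding part, annotated in NMD transcripts but in no protein-coding one. PSI was 1.60 to 7.69 (median 4.43) in DMSO siNT, 0 to 0.66 (median 0) in siSF3B1 and 4.39 to 14.9 (median 9) in siRBM39. In 4OHT it was 2.82 to 6.67 (median 5.23), 0 to 1.29 (median 0) and 7.01 to 15.5 (median 9.89). All siSF3B1 libraries were at or near 0, and the 2 knockdowns differed by 8.85 ± 1.42 points in DMSO (1.26e-14) and 10.4 ± 1.12 in 4OHT (3.85e-16) without overlap. Against siNT the difference after siRBM39 was 4.37 ± 1.58 and 5.61 ± 1.21 points, with larger split p of 0.196 and 0.0778, and siRBM39-06 gave a DMSO mean of 5.53 where siRBM39-08 gave 12.6. Without replicate 1 the 4OHT difference was 4.55 points (0.0812).

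LUC7L3, a U1 snRNP-associated protein, held 2 members that went different ways. Both are annotated in NMD transcripts but in no protein-coding one, and both have an in-frame stop. The 193-nt exon (HsaEX0037001) was at 0 to 4.48 (median 1.23) in DMSO siNT and 2.76 to 10.5 (median 6.93) in DMSO siRBM39, a difference of 5.45 ± 1.04 points (split p 0.0292). In 4OHT the difference was 5 ± 1.52 (0.052), 4.46 without the library that stands apart and 3.96 without replicate 1, and the DMSO value was 4.61 without replicate 4. The 121-nt exon (HsaEX0037004) was at 3.85 to 16.7 (median 7.04) in DMSO siNT and 0 to 3.17 (median 1.08) after siSF3B1, lower by 7.03 ± 1.56 points (0.00335). SRSF11, an SR-related protein, had a 33-nt exon (listed under SFRS11, HsaEX0057637) at 0 in most siNT libraries and at 3.88 to 15.3 (median 5.54) in DMSO siRBM39, with a difference of 6.36 ± 1.73 points (0.00909). In 4OHT siRBM39 it was at 0 to 13.6 (median 6.71), with means of 9.53 for siRBM39-06 and 2.21 for siRBM39-08, and the split p was 0.106. The difference fell under 5 points without replicate 4 in DMSO (4.94) and without replicate 1 (4.11) or 3 (4.37) in 4OHT.

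SF3B1 itself held a member, an unannotated 70-nt exon (HsaEX0057571) whose 70 nt shift the frame. PSI was 2.90 to 7.47 (median 5.6) in DMSO siNT, 0 to 1.14 (median 0) in DMSO siSF3B1 and 0.39 to 0.94 (median 0.71) in DMSO siRBM39. In 4OHT siNT it was 0.87 to 3.48 (median 1.99). The differences from siNT were -5.10 ± 0.605 points after siSF3B1 (7.67e-10) and -4.55 ± 0.592 after siRBM39 (1.84e-06). The second lay under the 5 points asked for a call, and the first did so without replicate 2 (-4.59) or 4 (-4.64). The siSF3B1 values rest on medians of 26.5 and 21 reads, in the libraries where SF3B1 was targeted, against 274 in DMSO siNT and 409 in DMSO siRBM39, where its mean CPM was 488.

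Of the other listed members called, SON (a nuclear speckle protein) had an 80-nt exon annotated in NMD transcripts but in no protein-coding one. PSI of this exon was 4.14 to 11.8 (median 8.18) in DMSO siNT, 1.36 to 2.80 (median 1.92) after siSF3B1 and 1.38 to 4.77 (median 2.23) after siRBM39, with larger split p of 2.84e-04 and 0.0122. The siRBM39 difference of SON fell short of 5 points against siNT2 (-4.31) and with siRBM39-06 alone (-4.69). LUC7L2, a paralogue of LUC7L3, had a 77-nt exon at 2.86 to 11.1 (median 7.52) in DMSO siNT and 0 to 4.69 (median 0.4) after siSF3B1 (0.00823), which was lower in 4OHT than in DMSO within siRBM39 by 5.85 ± 1.57 points (7.50e-04, 0.0513 without replicate 4, 0.0704 with siRBM39-06 alone and -4.75 points without replicate 3). Its siSF3B1 difference in DMSO was under 5 points in size against siNT2 (-4.75) and with siSF3B1-16 alone (-4.90). SNRPD2, a core protein of the snRNPs, had a 115-nt exon with a stop at its base 5 at 0 to 3.92 (median 1.56) in DMSO siNT and 5.03 to 10.3 (median 6.54) after siSF3B1 (0.0381), on medians of 21 and 30.5 reads, with a difference of 5.08 ± 0.813 points that was 4.66 without replicate 1 and 4.71 without replicate 2. The SRSF6 exon of 48 nt was lower after siSF3B1 than after siRBM39 in DMSO by 5.90 ± 1.17 points (6.71e-07). RBM25, a regulator of splice site choice, had a 122-nt exon at 0 to 33.3 (median 10.8) in DMSO siNT, 0 to 7.69 (median 2.17) after siSF3B1 and 1.30 to 7.32 (median 2.48) after siRBM39, with larger split p of 0.0403 and 0.197. PTBP3, a relative of the pyrimidine tract-binding protein PTB, had a 34-nt exon at 0 to 16.8 (median 7.29) in 4OHT siNT and 0 to 4.14 (median 2.02) after siSF3B1 (0.174). Leaving out any of replicates 1, 2 and 4 took the siRBM39 call from RBM25, and any of replicates 1, 2 and 3 the call from PTBP3, with adjusted p of 0.231 to 0.373 and 0.0923 to 0.174. The siSF3B1 call of RBM25 was lost without replicate 1 (0.126) or 4 (0.0592) and with siSF3B1-13 alone (0.0609).

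What the higher exons are was read from the annotation and the reading frame. Of the 50 members higher after siSF3B1 in either treatment, 23 (46%) are exons of no annotated transcript, 14 (28%) are in protein-coding transcripts, 7 (14%) in NMD transcripts but no protein-coding one and 4 (8%) only in others, and 2 could not be placed. Of the 35 higher after siRBM39, 7 (20%) are unannotated, 15 (42.9%) coding, 8 (22.9%) NMD, 4 (11.4%) other and 1 not placed. Over all 2810 members the shares were 41.7% unannotated, 23.02% coding, 19.4% NMD and 10.2% other. In annotation the siSF3B1 set thus lay near the members as a whole, and the siRBM39 set held fewer unannotated and more coding exons, as a description without a test. The sets also differed in control inclusion. Their median siNT PSI was 0.33% over all members, 2.17% in the siSF3B1 set and 3.82% in the siRBM39 set. The part of that level in these shares, and in the frames and introns below, was not tested.

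An in-frame stop within the exon was found in 1484 members (52.8%), in 29 of the 50 (58%) and in 15 of the 35 (42.9%). Counting also the stops that follow a frame shift, a stop 50 nt or more before the last exon junction, the usual mark of an NMD target, arose in 1702 of the 2282 members that could be read (74.6%), in 33 of 43 (76.7%) for siSF3B1 and in 16 of 30 (53.3%) for siRBM39. Exons that kept the frame without a stop were 14.4% of members, 14% of the siSF3B1 set and 25.7% of the siRBM39 set. Nearly all placed members, 2660 of 2680 (99.3%), had an AG before and a GT or GC after them.

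Intron lengths around the exons were read from the deposited event coordinates, up to the first listed neighbouring exon on each side. The intron after the exon had a median of 868.5 nt in the siSF3B1 set and was at most 200 nt long for 11 of 48 (22.9%), against 1875.5 nt and 9.18% over all placed members and 1174 nt and 16.9% over all exon events of this length range. For the siRBM39 set the median was 1518 nt and the share 14.7%. Before the exon the medians were 833 nt (siSF3B1), 1448.5 nt (siRBM39), 1775 nt (members) and 1229 nt (all exon events), and the share of at most 200 nt was 6.25%, 5.88%, 7.57% and 16.02% in the same order. The 50 bases before the exon held a median of 60% pyrimidines in the siSF3B1 set, 68% in the siRBM39 set and 60% over all members. These features were not used to choose the exons, and their differences were not tested.

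Gene expression was read from the counts of the same libraries, independently of PSI. After siSF3B1 in DMSO the 33 genes that held a higher exon split into 11 higher and 10 lower (edgeR quasi-likelihood, adjusted p under 0.05), where 36.5% of all 9991 genes were higher and 36.2% lower. In 4OHT 7 of 31 were higher and 17 lower, with 39.4% and 37.6% over all genes, and their median log2 fold change was -0.33 against 0.03 over all genes. After siRBM39 6 of 24 were higher and 9 lower in DMSO (23.9% and 22.2% of all genes), and 3 of 23 and 7 of 23 in 4OHT (32.2% and 24.3%). Genes were also counted once over both treatments, each only in a treatment where its exon was called. Of 48 such genes, 22 were lower and 15 higher in at least 1 treatment after siSF3B1. After siRBM39, 15 of 35 were lower and 8 higher (18 and 10 without the library that stands apart). No such count was made over all genes, so these numbers have no background beside them. Among genes whose higher exon carries an in-frame stop, 4 of 17 were lower and 8 higher after siSF3B1 in DMSO, and 11 of 23 lower and 6 higher in 4OHT, and after siRBM39 5 of 13 were lower and 3 higher in DMSO, and 2 of 7 lower and 0 higher in 4OHT.

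TBC1D17 expression fell by 0.68 ± 0.07 on the log2 scale in DMSO (adjusted p 3.50e-11, edgeR) and by 0.49 ± 0.07 in 4OHT (9.38e-08) after siSF3B1. ZMIZ2 fell by 0.33 ± 0.06 (7.47e-07) and 0.33 ± 0.06 (9.01e-07). U2AF2, with its poison exon, rose by 0.36 ± 0.08 (5.04e-05) and 0.42 ± 0.08 (3.19e-06), and PCNX3 rose by 0.52 ± 0.05 (7.16e-12) and 0.66 ± 0.05 (4.58e-15). IVNS1ABP fell by 0.39 ± 0.03 in DMSO (7.30e-15) and had a change of -0.01 ± 0.03 in 4OHT (0.786), and BMP1 had changes of 0.01 ± 0.08 (0.938) and 0.10 ± 0.08 (0.248). Genes with a stop-bearing exon thus moved in both directions.

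After siRBM39, FLOT2, whose exon shifts the frame, fell by 0.61 ± 0.09 in DMSO (1.05e-07) and 0.57 ± 0.09 in 4OHT (3.49e-07). MED24, whose exon keeps the frame, had changes of -0.04 ± 0.07 (0.62) and -0.09 ± 0.07 (0.237), and ADD1 of -0.03 ± 0.05 (0.678) and 0.10 ± 0.05 (0.079). CCDC14 had -0.17 ± 0.09 in DMSO (0.122) and fell by 0.41 ± 0.09 in 4OHT (2.68e-04), and after siSF3B1 it fell by 0.71 ± 0.09 (3.40e-09) and 0.88 ± 0.09 (1.45e-11), where its exon was at 0. Transcripts made and transcripts lost cannot be told apart from these counts.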

How the data were processed

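RNA of 48 libraries was sequenced and the authors ran vast-tools against its human hg19 library. The deposited PSI values, in percent, and the read scores beside them were used as the authors made them, as were the deposited gene counts (whole reads per gene). The deposited cRPKM values (RPKM corrected for mappability) and the table of normalised CPM were not used. The submitters' notes also name edgeR and limma without versions.

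Event coordinates in the deposited table lay within GRCh38 gene loci for 24650 of 24662 events, although hg19 is named. Exons were therefore placed on GRCh37 (GENCODE annotation) by gene, exon length and the length of either or both neighbouring introns. Exons without such a match were placed by their intron lengths inside an annotated intron of the same total span. This placed 2680 of 2810 members and left 130 unplaced. Sequences were read from the GRCh37 genome at the placed exons.

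PSI was transformed as logit(0.01 + 0.98 × PSI/100) and fitted with limma 3.58.1 (R 4.3.3), with 1 mean per group and Benjamini-Hochberg adjustment over 16960 exons that varied. A call needed an adjusted p under 0.05 and 5 points of difference in mean PSI. Errors of differences are standard errors from the group spreads. For comparisons with siNT the fit was repeated with members chosen on 1 siNT and tested against the other, and the larger adjusted p of the pair is printed as the split p. Exons named for a difference from siNT were picked with all siNT libraries. The split therefore covers the choice of members but not that naming. Gene counts were tested with edgeR 4.0.16 (quasi-likelihood, TMM) for 9991 genes with at least 10000 counts in total, with DESeq2 1.42.0 as an alternative. Both fits were tested on simulated data.

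Named exons were the 12 or fewer with the largest mean differences among those called in both treatments without overlap, the top 4 in each direction between the knockdowns, the top 3 for each treatment comparison, and every called exon in the target genes and the splicing lists. Members and lists were chosen with earlier results of these data known. Same-numbered replicates did not deviate together in PSI (median correlation -0.000243, range -0.0421 to 0.0316), and the main fits did not pair them. With few reads behind each PSI, this check cannot exclude a pairing, and it was not made on gene counts. All 72 pairs of libraries of 1 siRNA and treatment differed by more than sampling noise (the lowest chi-square was 1.89 for each degree of freedom). The count minimum, limit, scale and libraries were varied as described in the closing section.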

Additional observations from a re-analysis of the deposited data

Results flagged for a closer look

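In CSNK1E the 110-nt exon had a PSI of 31.47% in replicate 4 of siRBM39-08 in 4OHT, far from the 10.88% to 17.84% of the other 7 libraries of the group, and the group mean was 13.3% without it. In IVNS1ABP replicate 1 of siSF3B1-13 in DMSO was at 31.11%, against 15.48% to 22.76% in the other libraries. The same library had 10.26% for the SNRPD2 exon, against 5.03% to 7.35%. These were 3 of 42 groups examined for a library far from the rest, and chance alone sets such a library apart in about 1 in 20 groups.

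The change from siNT differed between DMSO and 4OHT for 3 exons by the interaction term of the fit (limma). The term includes the siNT libraries that chose the members. For NABP1 the difference was 10.98 points with siSF3B1 and 12.10 points with siRBM39, and both held with either siNT as the only control. For FZR1 it was 7.33 points with siSF3B1, and for RBFOX2 -5.45 points with siSF3B1. The FZR1 value did not pass the threshold with either siNT as the only control (0.237 and 0.472), and the RBFOX2 value passed with siNT1 (0.043) and not with siNT2 (0.117).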

How the results depend on the processing

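The counts of exons depended most on the minimum difference. With no minimum, members higher after siSF3B1 numbered 192 (DMSO) and 173 (4OHT) and after siRBM39 77 and 65, those differing between the knockdowns 491 and 403, those differing between treatments 88 (siSF3B1) and 43 (siRBM39), and the siSF3B1 interaction 13. With a minimum of 10 points these were 10, 9, 6 and 6, then 24 and 22, then 2 and 0, and 1. A stricter coverage score left 22 and 21 higher after siSF3B1, 65 differing between the knockdowns in DMSO and 5 between treatments in siRBM39. A siNT limit of 5% left 65 and 54 between the knockdowns, 2 between treatments in siRBM39 and 0 for the siRBM39 interaction. Between treatments in siSF3B1 8 remained when only the groups compared entered the fit, and 8 with a read-based probability of difference, which was not run for interactions. With siSF3B1-13 and siRBM39-06 alone, 3 differed between treatments in siRBM39 and 6 had an interaction with siSF3B1, and with siRBM39-08 alone 5 differed between treatments in siRBM39. Untransformed PSI gave 10 interactions with siSF3B1. The causes were not tested. Fewer exons enter under the stricter score and limit.

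Leaving out each replicate number in turn gave 32 to 38 and 28 to 33 members higher after siSF3B1, 16 to 19 and 18 to 26 after siRBM39, 94 to 99 and 84 to 88 between the knockdowns, 9 to 11 and 4 to 7 between treatments, 1 to 3 and 1 to 1 for the interactions, and 22 to 23 and 10 to 17 host genes lower. With the replicate number as a block, 35, 32, 24 and 22 members were higher, and the block changed none of the calls of named exons. Of 1840 alternative values of named exons, 1669 kept direction and call, 171 lost the call and 0 changed direction. Among those kept, 112 with no minimum difference and 77 with the siNT limit of 5% reuse the main fit and could not lose a call. The median member had 48 to 55.5 reads per library, which limits the precision of each PSI.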
